A study of Rattus norvegicus with 93 samples.

Results

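The clustered protocadherins were taken as every row of the expression table whose symbol starts with Pcdha, Pcdhb, Pcdhga, Pcdhgb or Pcdhgc followed by an isoform number. The rule found 38 rows among 38354. They are 1 alpha row (Pcdha4), 22 beta rows, 11 gamma A rows, 2 gamma B rows (Pcdhgb7 and Pcdhgb8) and 2 gamma C rows (Pcdhgc3 and Pcdhgc5). The RefSeq gene table lists the alpha isoforms, Pcdhac1 and Pcdhac2 among them, as synonyms of Pcdha4, so Pcdha4 stood for the alpha cluster as 1 row. Pcdhac1, Pcdhac2 and Pcdhgc4 as single isoforms were not analysed here. RefSeq gives PCDHGB4 and PCDHGB5 as other names of Pcdhga7 and Pcdhga8. In the table's own coordinates the rows start between positions 28688274 and 29898430 of chromosome 18, in the order alpha, beta, gamma. PolyA RNA was measured in the RMTg (rostromedial tegmental nucleus), an inhibitory nucleus that projects to midbrain dopamine neurons, from outbred laboratory rats. All 93 labelled samples form 1 group, for which the labels give no strain, sex, age, treatment or behaviour, and 92 had a column of values. By its title the study concerns avoidance learning in addiction.

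Clustered protocadherins are cell adhesion proteins that bind the same isoform on a neighbouring membrane, and each neuron expresses its own subset of them. In the alpha and gamma clusters a variable first exon, with its own promoter, is spliced to constant exons that all isoforms of the cluster share, whereas each beta gene is a single exon. Isoform choice works through promoter methylation and through looping by CTCF and cohesin, and the C-type isoforms are chosen by other rules. Self-recognition by these proteins lets the branches of a neuron avoid each other. In a separate role, clustered protocadherins support the survival of interneurons.

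Values were used from the 49 libraries in which Nif3l1 took under 20% and LOC120093067 plus Zfp532 under 10% of the counts. These 49 libraries are called the first kind below. Their totals ran from 9545360 to 50172732 estimated counts (median 19193978). Another 32 libraries, of the second kind, had LOC120093067 plus Zfp532 at 10% or more and totals of 2289278 to 13738512 (median 5400209); they are given separately. The remaining 11 libraries, with Nif3l1 at 20% or more, were not used. Levels are in CPM, the count scaled to 1 common library total, and tests used log2(CPM + 1), on which the change of low genes is understated. Nothing in the labels says more on how the libraries were made, so p-values measure the spread between these libraries. Identifiers of the first-kind libraries fell into number series B, C, D, E and F with 7, 16, 12, 7 and 7 libraries. Those of the second kind fell into series A, B, C and D with 5, 18, 8 and 1 libraries. The 2 kinds thus differ in series as well, and the labels do not say what these series are. The tissue label was checked against markers: Gata3 and Sox14, transcription factors of RMTg inhibitory neurons, had 55.8 ± 6.26 and 44.1 ± 6.23 CPM (SD, n = 49). The neuronal gene Snap25 had 1134 ± 162 CPM. Th, a marker of dopamine neurons, had 248 ± 174 CPM and Tph2, a marker of serotonin neurons, 194 ± 58.4 CPM. These levels do not tell how much tissue of other nuclei the samples held.

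The promoters of the clusters carry a shared element near the start site. Its letters are printed here because each beta and gamma isoform has its own first exon and promoter. RefSeq promoter windows of build GRCr8, from 250 bases before to 50 after a start site, were found for 34 of the 38 rows, with 35 windows in all. Pcdhb11, Pcdhb17, Pcdhb22 and Pcdhgb7 had no entry. The table's own build is not given in the sources used here. For 32 of the 34 rows the table's position equals the start site of a RefSeq window. For Pcdhb10 the table's position, 29382955, is not the start site of the window printed below. All windows lie on the forward strand of chromosome 18. Motif letters were taken from these same windows, and both strands were searched. The beta motif is the stretch of 10 bases with CGCT that most beta windows hold. The gamma motif holds the letters shared by gamma windows that start with CTCT and end with CC around CGCT. Counts of the motifs in the windows of their own cluster follow in part from this choice.

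The beta motif was GGTGGCGCTG. It stood in 15 of the 19 beta windows and in 0 of the 15 gamma windows, against 74 of 33469 windows of all genes (0.221%). The 4 beta windows without these letters belong to Pcdhb1, Pcdhb6l, Pcdhb15 and Pcdhb16l. The motif began between 229 bases before (-229) and 36 bases after the annotated start, with a median of -68. In the lines below the motif is in capitals, and the rows shown are in a pair named below or had the highest levels of the beta rows.
Pcdhb3, chr18:29285604-29285633: atgaacgcatGGTGGCGCTGttgactaaga
Pcdhb5, chr18:29302404-29302433: atgaacgcagGGTGGCGCTGcaggctaaga
Pcdhb6, chr18:29320152-29320181: tagtacacacGGTGGCGCTGcagtctaagg
Pcdhb7, chr18:29328998-29329027: gtggacgcagGGTGGCGCTGcaggctaaga
Pcdhb9, chr18:29379248-29379277: aaagacacagGGTGGCGCTGcaggctaaga
Pcdhb10, chr18:29391778-29391807: agggacgcgtGGTGGCGCTGtctactaaga
Pcdhb19, chr18:29478764-29478793: gaagacacatGGTGGCGCTGcaggataatg

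The gamma motif was CTCTNNGNGNCGCTNTNNNCC, where N is any base. It stood in 11 of the 15 gamma windows and in 0 of the 19 beta windows. Over all genes it stood in 12 of 33469 windows (0.0359%), and the window outside the clusters belongs to Map1lc3b. Pcdhga1, Pcdhga4 (which has more than 1 window) and Pcdhgc5 lacked it. Its start lay at -174 to -30 bases. Both motifs hold the core CGCT, which alone is found in 60.9% of all windows. The lines below show the isoforms of highest level, a neighbouring pair that moved together (Pcdhga8 and Pcdhga9) and the C-type isoform Pcdhgc3; capitals mark the motif.
Pcdhga2, chr18:29745078-29745118: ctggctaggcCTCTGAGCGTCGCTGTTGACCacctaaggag
Pcdhga7, chr18:29794200-29794240: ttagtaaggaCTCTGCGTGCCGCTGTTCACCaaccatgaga
Pcdhga8, chr18:29804995-29805035: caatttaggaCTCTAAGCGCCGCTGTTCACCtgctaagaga
Pcdhga9, chr18:29815778-29815818: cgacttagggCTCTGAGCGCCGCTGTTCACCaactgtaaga
Pcdhgc3, chr18:29884061-29884101: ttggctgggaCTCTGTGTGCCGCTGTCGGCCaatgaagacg

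Rows with the beta motif had mean levels of 0.436 to 6.997 CPM, and those without it 0.0317 to 2.32 CPM, so the ranges overlapped. Rows with the gamma motif had means of 1.89 to 22.7 CPM and the 3 rows without it 1.09 to 4.82 CPM. No test was made of these ranges, since the motifs were taken from these same windows. The longest stretches shared by promoter windows were 49 bases between Pcdhb6 and Pcdhb8, 43 bases between Pcdhb7 and Pcdhb9, and 32 bases between Pcdhb4 and Pcdhb12. Levels of these pairs over the 49 libraries had r = -0.16, 0.40 and 0.37, in that order. Of pairs that share 25 bases, Pcdhb5 with Pcdhb9 had r = 0.62 and Pcdhb4 with Pcdhb14 r = 0.26. A relation between shared length and correlation was not tested.

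Rows of all 3 clusters were measured above the filter on low values. Of the 38 rows, 36 passed the filter (a log2(CPM + 1) of 1 or more, reached in 20% or more of the 49 libraries), as did 18749 of all rows. Pcdhb1 was at 0 in 31 of 49 libraries, with a highest level of 0.166 CPM and a mean of 0.0317 CPM. Pcdhb21 ran from 0 to 1.62 CPM, with a median of 0.361 CPM and 5 libraries at 0. These 2 rows did not pass. Transcript lengths of alpha and gamma rows were not used here, so levels per length are given for beta genes only. Orders of gamma rows, and the levels by motif above, are in CPM and mix transcript length with level.

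Pcdha4 was the most even row. Its lowest level was 79.3 CPM, its median 103.7 CPM and its highest 127.1 CPM, a coefficient of variation (CV, SD as a percentage of the mean) of 10.1%. The ratio of the highest to the lowest library was 1.60. Since this row stood for a cluster, sums of rows are a closer measure than single isoforms. The summed beta and gamma rows had CVs of 13.4% and 11.9%.

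Among beta genes, Pcdhb9 had the highest level per length, at 2.21 CPM per kb of gene span. Its CPM ran from 2.24 through a median of 7.28 to 10.1. Pcdhb7 followed at 1.74 and Pcdhb19 at 1.48 CPM per kb. The lowest beta row that passed the filter was Pcdhb2, at 0.316 CPM per kb, with levels of 0.156 to 1.78 CPM (median 0.851). Pcdhb10, whose span in RefSeq is 13324 bases against 2340 to 6105 for the others past the filter, is left out of this order. It had 3.51 to 12.001 CPM (median 5.59). Neighbours in the order overlapped over libraries, as the SD of Pcdhb7 (5.98 ± 1.68 CPM) and of Pcdhb9 (6.997 ± 1.77 CPM) show. The CPM of each row by library is drawn in the plot of levels along the chromosome.

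**Figure D1:**
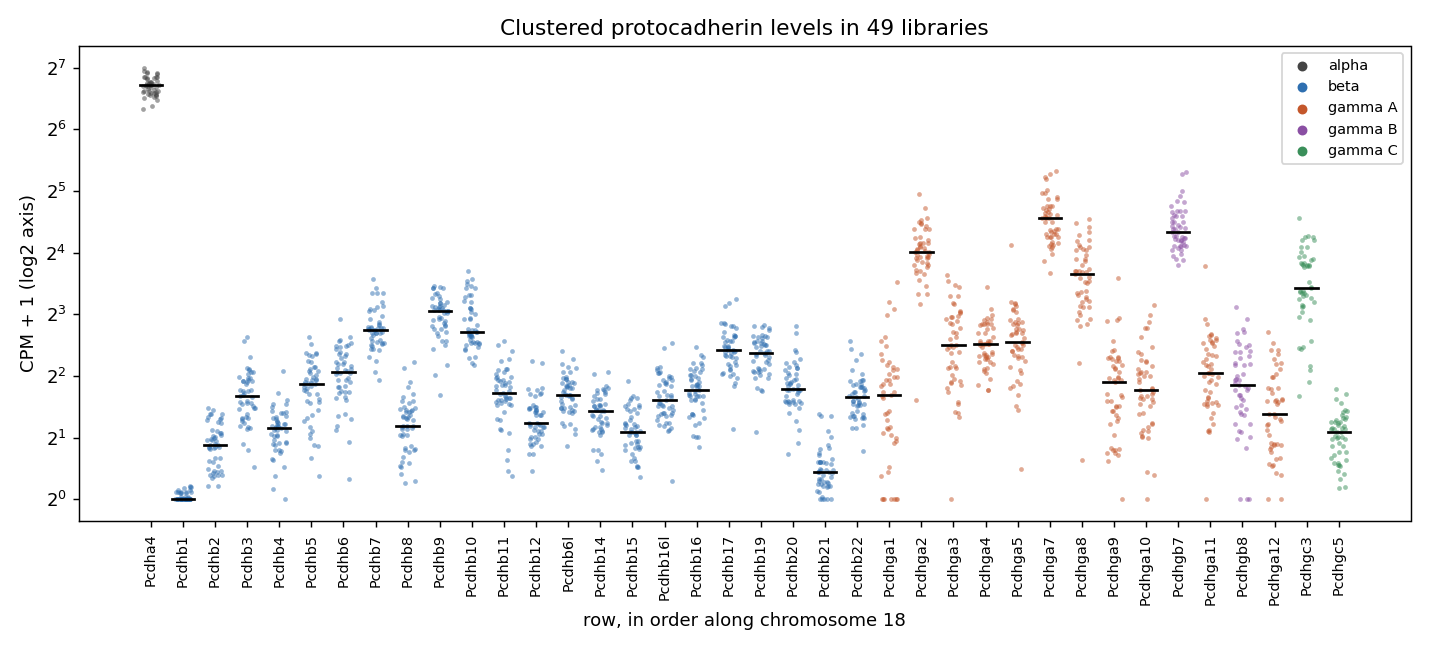
Levels of the 38 clustered protocadherin rows in the 49 libraries, as CPM + 1 on a log2 axis, in order along chromosome 18; each point is a library and each bar a median. Pcdha4, 1 row for the alpha cluster, sits at 79.3 to 127.1 CPM in every library, while 7 of the 15 gamma rows are at 0 in at least 1 library.

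Among gamma isoforms, Pcdhga7 ran from 11.7 through 22.5 to 38.9 CPM and Pcdhgb7 from 12.9 through 19.3 to 38.4 CPM. These 2 rows were measured in every library, and their ranges overlapped almost fully. As a share of all gamma counts, Pcdhga7 held 19.9% ± 4.65 and Pcdhgb7 18.2% ± 5.19 (SD, n = 49). Pcdhga7 was the largest gamma row in 28 libraries, Pcdhgb7 in 14, Pcdhga2 in 5 and Pcdhga8 in 2. The lowest gamma A row was Pcdhga12, from 0 through 1.60 to 5.54 CPM, and the lower gamma B row was Pcdhgb8, from 0 through 2.63 to 7.72 CPM. The C-type isoform Pcdhgc3, which background knowledge places in glia as well as neurons, ran from 2.19 through 9.70 to 22.5 CPM. Pcdhgc5, a C-type isoform of neurons, ran from 0.141 through 1.13 to 2.45 CPM. In all, 7 of the 15 gamma rows and 3 of the 22 beta rows were at 0 in at least 1 library.

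Single isoforms varied far more than their cluster as a whole. The 22 beta rows summed to 58.9 ± 7.87 CPM (CV 13.4%), with 35.1, 59.1 and 75.5 CPM as the lowest, median and highest library. The 15 gamma rows summed to 113.7 ± 13.5 CPM (CV 11.9%), from 89.99 through 110.7 to 145.6 CPM. All 38 rows together summed to 276.3 ± 17.7 CPM (CV 6.40%), from 244.0 to 312.9 CPM. The median CV of single rows past the filter was 38.7% for beta and 49.96% for gamma. A sum averages over its rows. With no correlation between rows the SD of the gamma sum would be 13.2 CPM, and the observed SD was 1.03 times that. For all rows the same figure was 17.6 CPM, and the observed SD was 1.01 times that. For the beta sum it was 4.96 CPM, so the beta sum varied 1.58 times as much as uncorrelated rows would. This ratio was not computed for sets of other genes. Of all pairs of tested genes, 4.23% had r of at least 0.5 and 1.82% r of at most -0.5.

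How the counts were divided between isoforms differed between the clusters. Of the values between 0.5 and 60 estimated counts, 438 of 669 beta values (65.5%) were whole numbers within 0.01, against 2 of 258 gamma values (0.775%). Low gamma values were thus almost all fractional. As background, kallisto divides reads that fit several transcripts between them, as reads of shared constant exons do. Gamma values of 1 library can therefore depend on each other, and so can beta values where many are fractional. The part of this division in the spread and the correlations of gamma and beta rows was not tested. For beta rows the count itself sets a floor: Pcdhb2 had a mean of 18.4 counts, for which counting alone gives a CV of 23.3%, and an observed CV of 52.1%.

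To set the spread of each row against genes of like level, the SD of log2(CPM + 1) was taken less the trend of SD on mean level over all 18749 tested genes. The median of this residual SD was 0.07 for the 36 members (quartiles 0.02 and 0.24) and -0.0007 for all tested genes (quartiles -0.04 and 0.05). In libraries of the second kind the members' median was -0.01. Of the 36 members, 13 lay among the 10% of tested genes with the largest residual SD. These were 11 of the 15 gamma rows and 2 of the 20 beta rows (Pcdhb5 and Pcdhb6). The largest values were those of Pcdhga1 (0.58), Pcdhgc3 (0.37), Pcdhga3 (0.37) and Pcdhga8 (0.37). Pcdhga1 was at 0 in 7 libraries, at a median of 2.23 CPM and at 10.5 CPM in the highest library. Pcdhga3 ran from 0 through 4.65 to 11.5 CPM and Pcdhga8 from 0.552 through 11.6 to 22.4 CPM. The smallest residual SD was that of Pcdha4 (-0.09, at percentile 4.89 of tested genes), the row that stood for the alpha cluster. Then came Pcdhb6l (-0.03), Pcdhb19 (-0.01) and Pcdhb22 (-0.0074).

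**Figure D2:**
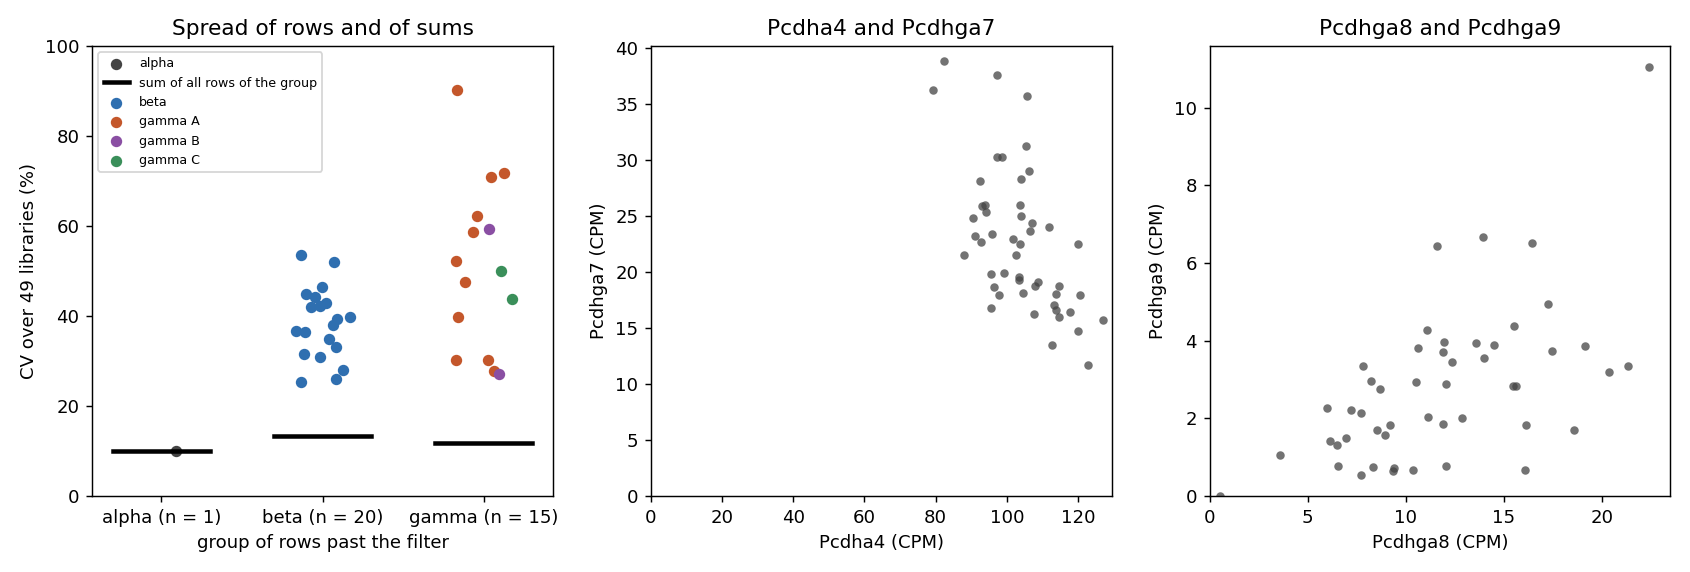
Left: CV over 49 libraries of each row past the filter (points) and of the sum of its group (bars), in percent; sums of beta and gamma lie at 13.4% and 11.9%, below every single beta or gamma row. Middle and right: CPM of 2 pairs of rows, each point a library, for Pcdha4 against Pcdhga7 (r = -0.62 on the log2 scale) and Pcdhga8 against Pcdhga9 (r = 0.61).

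Since the rats were outbred, rows were searched for separated levels, that is, for a gap of 1 or more between sorted log2(CPM + 1) values that left 5 or more libraries above and below it. Of the 36 members, 0 had one, against 38 of 18749 tested genes (0.203%). The widest such gaps were 0.40 in Pcdhga1 and 0.35 in Pcdhgc3, and the narrowest was 0.04 in Pcdha4. In the second kind, 4 of 37 rows passed the same rule, against 272 of 20097 tested genes (1.35%).

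Correlations between rows were mostly weak. Over the 630 pairs of members the median Pearson r was 0.05. Only 7 pairs (1.11%) had r of at least 0.5, against 4.23% of all pairs of tested genes and 8.95% of pairs of neighbouring genes. After 10 principal components of all tested genes were removed the order against all pairs turned round: 4 member pairs (0.635%) reached 0.5, against 0.161% of all pairs and 1.31% of neighbouring genes. The same 3 shares were 6.01%, 16.6% and 21.97% in the second kind of libraries. One pair had r of at most -0.5, against 1.82% of all pairs. By permutation test with adjustment over the 630 pairs, 15 pairs passed an adjusted p of 0.05, 11 of them positive and 4 negative. Pairs of 2 beta rows had a median r of 0.12 and were positive in 140 of 190 pairs. Pairs of 2 gamma rows had a median r of 0.04 (60 of 105 positive) and pairs of a beta with a gamma row -0.0013 (149 of 300 positive). Neighbouring beta genes had a median r of 0.08 over 19 pairs, no higher than that of all beta pairs. For the 18727 pairs of neighbouring tested genes the median r was 0.098. The shares of all gene pairs that are positive, or that pass the permutation test, were not computed.

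**Figure D3:**
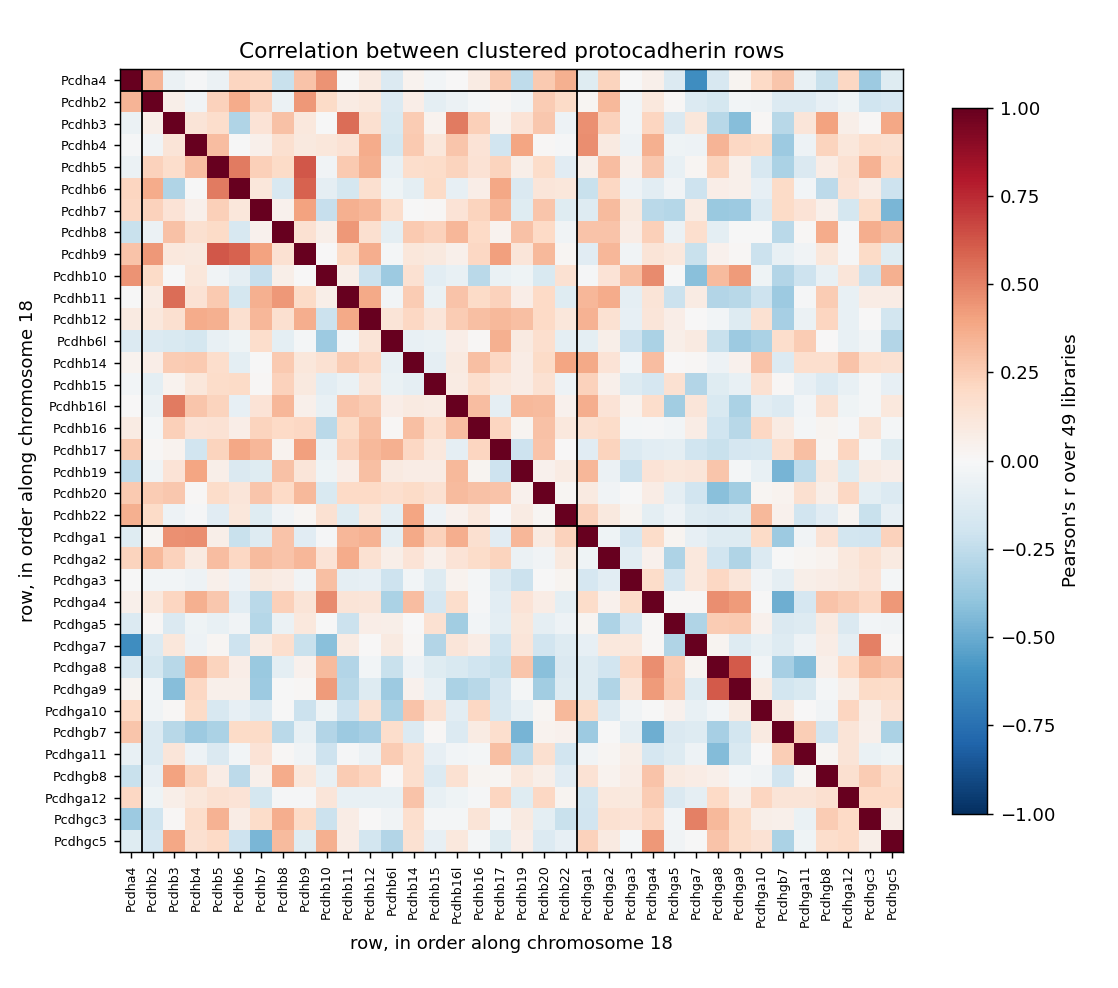
Pearson's r over 49 libraries between the log2(CPM + 1) levels of all 36 rows past the filter, in order along chromosome 18; black lines part alpha, beta and gamma. Most cells are pale; the block of Pcdhb5, Pcdhb6 and Pcdhb9, the neighbours Pcdhga8 and Pcdhga9, and Pcdha4 with Pcdhga7 stand out.

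A set of positive relations joined Pcdhb5, Pcdhb6 and Pcdhb9, whose start sites lie within 76.8 kb. Pcdhb5 and Pcdhb9 had r = 0.62 (rho = 0.45, n = 49, permutation p = 4e-05, adjusted p = 0.0084; for rho p = 0.00173, adjusted p = 0.0823). Leaving out the 2 libraries most distant from the Pcdhb5 median gave 0.48. In series B, C, D, E and F it was -0.68, 0.69, 0.55, 0.52 and 0.70, so series B went the other way. Pcdhb6 and Pcdhb9 had r = 0.59 (rho = 0.45; permutation p = 7e-05 for r and 0.00141 for rho, adjusted 0.00882 and 0.074). It was 0.54 without the 2 farthest libraries and 0.02 to 0.84 within series. Pcdhb5 and Pcdhb6 had r = 0.52 and rho = 0.47 (permutation p = 0.00015 and 0.00067, adjusted 0.0153 and 0.0472), with 0.48 without the 2 farthest and -0.38 to 0.91 within series. In the levels themselves, Pcdhb5 ran from 0.299 through 2.66 to 5.21 CPM and Pcdhb6 from 0.263 through 3.17 to 6.60 CPM. In the second kind of libraries the 3 pairs had r = 0.18, -0.04 and 0.23.

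Another beta relation joined Pcdhb3 with Pcdhb11 and Pcdhb16l. Pcdhb3 and Pcdhb11 had r = 0.56 and rho = 0.44 (permutation p = 7e-05 and 0.00183, adjusted 0.00882 and 0.0823). Without the 2 farthest libraries r was 0.50, and within series it ran from 0.08 to 0.94. It was 0.10 in the second kind (adjusted permutation p = 0.761) and 0.35 after 10 principal components. Pcdhb3 and Pcdhb16l had r = 0.52 and rho = 0.33 (permutation p = 0.00017 and 0.0197, adjusted 0.0153 and 0.244), falling to 0.33 without the 2 farthest libraries, so this relation rests in part on those libraries. It was 0.17 in the second kind (adjusted permutation p = 0.59). Of the 10 pairs named by rule, 2 stayed past the threshold after 10 principal components (Pcdhb6 with Pcdhb9 and Pcdhb5 with Pcdhb6), 7 no longer passed it and 1 changed sign. Pcdhb3 ran from 0.446 through 2.20 to 5.20 CPM.

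Among gamma isoforms, the neighbours Pcdhga8 and Pcdhga9, whose start sites lie 10.7 kb apart, had r = 0.61 and rho = 0.55 (n = 49, permutation p = 1e-05 and 9e-05, of which the first is the lowest value possible with 100000 permutations; adjusted 0.0063 and 0.0189). Without the 2 farthest libraries r was 0.52. Within series it was -0.03 in B, 0.68 in C, 0.58 in D, 0.36 in E and 0.68 in F. Pcdhga9 ran from 0 through 2.75 to 11.03 CPM. In the second kind r was 0.42. The other gamma pair at r of at least 0.5 was Pcdhga7 with Pcdhgc3 (r = 0.50, rho = 0.50, permutation p = 0.00021 and 0.00027, adjusted 0.0165 and 0.034), which was named after its value was seen.

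The strongest negative relation joined the alpha row with a gamma isoform 1106 kb away. Pcdha4 and Pcdhga7 had r = -0.62 and rho = -0.58 (n = 49, permutation p = 2e-05 and 7e-05, adjusted 0.0063 and 0.0189). Without the 2 farthest libraries r was -0.53, and in series B, C, D, E and F it was -0.29, -0.80, -0.05, -0.67 and -0.77. After 10 principal components of all tested genes were removed, r was -0.07 (adjusted p = 0.91), and in the second kind of libraries it was 0.15. Pcdhga4 and Pcdhgb7 had r = -0.49 and rho = -0.43 (permutation p = 0.00032 and 0.00248, adjusted 0.0224 and 0.0938). Without the 2 farthest libraries it was -0.51, but within series it ran from -0.66 to 0.24, and after 10 principal components it was 0.08. Pcdhb19 and Pcdhgb7 had r = -0.47 and rho = -0.41 (permutation p = 0.00081 and 0.00379, adjusted 0.0393 and 0.114), -0.30 without the 2 farthest, -0.89 to -0.05 within series and 0.33 in the second kind. Pcdhb7 and Pcdhgc5 had r = -0.46 and rho = -0.48 (permutation p = 0.00111 and 0.00066, adjusted 0.0466 and 0.0472), -0.41 without the 2 farthest, and -0.79 to 0.11 within series.

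The summed clusters were compared in the same way, as an analysis added after seeing the data. The alpha and beta sums had r = 0.31 and rho = 0.28 (permutation p = 0.0275 and 0.0491, adjusted over 3 pairs 0.0554 and 0.0736), 0.24 without the 2 farthest libraries and 0.23 to 0.90 within series. The alpha and gamma sums had r = -0.30 and rho = -0.34 (permutation p = 0.0369 and 0.0184, adjusted 0.0554 and 0.0553), -0.30 without the 2 farthest and -0.38 to -0.0042 within series. The beta and gamma sums had r = -0.08 and rho = 0.01 (permutation p = 0.586 and 0.927), 0.07 without the 2 farthest and -0.51 to 0.31 within series. None of the 3 relations passed the adjusted threshold.

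A sample of brain tissue can hold differing amounts of neighbouring nuclei and glia, so each row was tested for a slope on 5 scores of cell type markers. A score is the mean z-scored level of a marker list, and slopes are in log2 units per SD of the score, with their standard errors. Fewer cells of a type and less RNA per cell cannot be told apart in bulk tissue. All markers of the 5 lists passed the filter (11, 8, 10, 10 and 10 genes for RMTg inhibitory, serotonergic, dopaminergic, astrocyte and oligodendrocyte). Their summed levels ran from 867.0 to 1309 CPM, 279.0 to 845.8 CPM, 252.9 to 1819 CPM, 3424 to 5647 CPM and 33843 to 79031 CPM. The scores were not independent: of 15 pairs among scores and log10 library total, the astrocyte and oligodendrocyte scores had r = 0.40 and rho = 0.44 (permutation p = 0.00433 and 0.00159, adjusted 0.0325 and 0.0224), 0.59 without the 2 farthest libraries and 0.06 to 0.74 within series. The oligodendrocyte score and the library total had r = 0.44 and rho = 0.42 (permutation p = 0.00179 and 0.00299, adjusted 0.0268 and 0.0224), 0.38 without the 2 farthest and -0.55 to 0.74 within series. Alternative fits added series, the levels of Xist and Ddx3y, library total or a composition index as terms. That index is the mean level of respiratory chain genes less that of long neuronal genes. No fit on a score added the score of another cell type, so the part of other cell types in the slopes below was not tested.

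On the RMTg inhibitory score, 0 of 36 members passed limma's moderated test at an adjusted p of 0.05, against 0.0427% of 18738 tested genes (0.0374% rising and 0.00534% falling). At an unadjusted p under 0.05 there were 2, Pcdhgb7 (slope 0.11 ± 0.05) and Pcdhga12 (0.21 ± 0.09), with adjusted p of 0.437 and 0.428. With median-of-ratios size factors Pcdhgb7 passed. The members' median slope was -0.0054 and that of all tested genes 0.01.

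On the serotonergic score, 4 of 36 members passed, against 12.7% of tested genes (2387 of 18741, with 5.13% rising and 7.6% falling), so the members' share (11.1%) was near the background. Pcdhb20 rose by 0.19 ± 0.05 (limma adjusted p = 0.0142), Pcdhga2 by 0.21 ± 0.06 (0.0275) and Pcdhb7 by 0.14 ± 0.04 (0.0327). The median slope was 0.05 for the members and -0.02 for all tested genes. Pcdhga8 had a slope of -0.25 ± 0.08 (0.0388), and without the 2 libraries of most distant score it was -0.09 (adjusted p = 0.476). Of the 8 alternatives on the same libraries, 7 kept Pcdhb20 past the threshold, 5 Pcdhga2, 4 Pcdhb7 and 3 Pcdhga8. Pcdhb20 lost its call without the 2 libraries of most distant score (0.14). Levels of Pcdhb20 ran from 0.672 through 2.44 to 6.02 CPM, those of Pcdhga2 from 2.05 through 15.1 to 29.9 CPM and those of Pcdhb7 from 2.84 through 5.73 to 10.9 CPM.

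On the dopaminergic score, 2 of 36 members passed, against 4.37% of tested genes (1.89% rising and 2.47% falling). Pcdhb7 rose by 0.15 ± 0.04 (limma adjusted p = 0.0416) and Pcdhb2 by 0.15 ± 0.05 (0.0489). The median slope of the members was 0.05 and that of all tested genes -0.0058. Both called rows lost the call with identifier series as a covariate, with no filter on low values and without the 2 libraries of most distant score.

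On the astrocyte score, 8 of 36 members passed and all 8 rose, against 30.9% of tested genes called, 14.9% rising and 16.1% falling. The members' share called (22.2%) was below that background. Pcdhb17 rose by 0.22 ± 0.04 (limma adjusted p = 0.000257), Pcdhb9 by 0.20 ± 0.04 (0.000736) and Pcdhb7 by 0.14 ± 0.04 (0.0113). Pcdhb5 rose by 0.20 ± 0.06 (0.012), Pcdhb11 by 0.19 ± 0.06 (0.0127) and Pcdhga2 by 0.18 ± 0.06 (0.0287). Pcdhgc3 rose by 0.24 ± 0.09 (0.0306), and Pcdhb6 by 0.17 ± 0.06 (0.0337). Of the 8 called rows 6 were beta, as were 20 of the 36 rows tested. The median slope was 0.05 over the members and -0.009 over all tested genes. Pcdhb17, Pcdhb9 and Pcdhb11 stayed past the threshold in all 8 alternatives on these libraries, with slopes of 0.15 to 0.24, 0.18 to 0.22 and 0.15 to 0.24. Pcdhgc3 did so in 3, and lost its call with series, with the levels of Xist and Ddx3y or with library total as a covariate, and under 2 other settings. Pcdhb17 ran from 1.202 through 4.37 to 8.49 CPM and Pcdhb11 from 0.299 through 2.29 to 4.94 CPM.

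On the oligodendrocyte score, 4 of 36 members passed, against 24.3% of tested genes (15.5% rising and 8.8% falling). Pcdha4 fell by 0.08 on the log2 scale (slope -0.08 ± 0.02, limma adjusted p = 0.0044). It stayed past the threshold in all 8 alternatives on these libraries (-0.09 to -0.07). In the second kind the same slope was 0.30 (adjusted p = 0.000119), where 32.1% of all tested genes were called, 5952 rising and 500 falling. Pcdhgc3 rose by 0.28 ± 0.08 (0.0102), Pcdhb5 by 0.18 ± 0.07 (0.0419) and Pcdhb8 by 0.16 ± 0.06 (0.0437). Pcdhgc3 had 0.20 with series as a covariate (adjusted p = 0.0765) and 0.21 with Xist and Ddx3y (0.0894), and Pcdhb8 kept its call in 1 of 8 alternatives. Over all members the median slope was 0.04, and over all tested genes 0.01. Pcdhgc5, the other C-type row, had slopes of 0.12 ± 0.05 (adjusted p = 0.0839) on this score and -0.04 ± 0.05 (0.588) on the astrocyte score; the difference between the 2 isoforms was not tested. Pcdhb8 ran from 0.202 through 1.28 to 3.66 CPM.

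**Figure D4:**
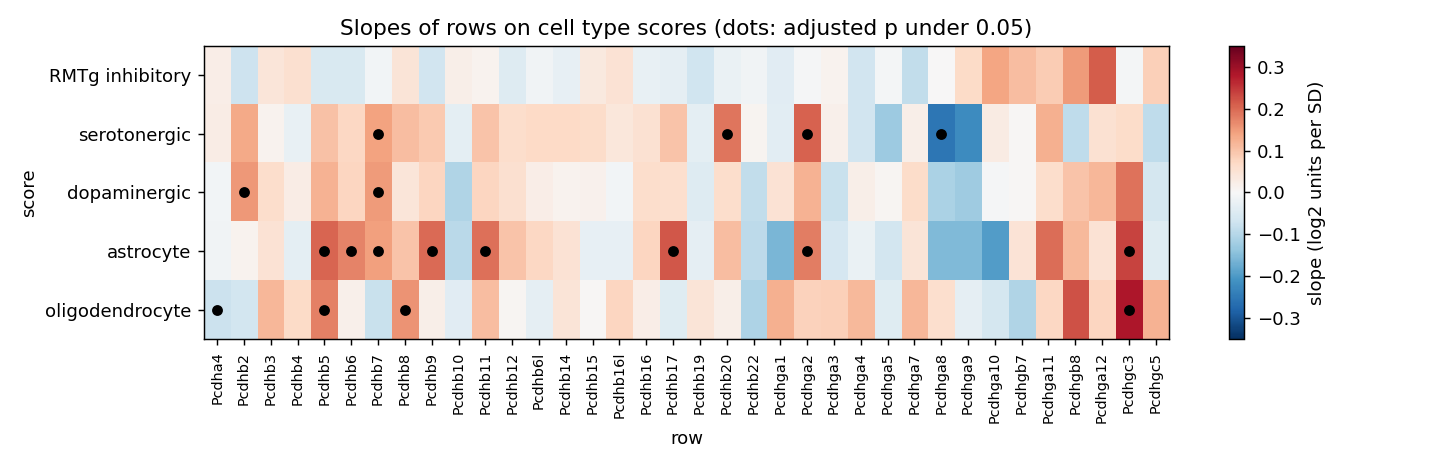
Slopes of the 36 rows past the filter on the 5 cell type scores, in log2(CPM + 1) units per SD of the score (colour), over 49 libraries; dots mark limma adjusted p under 0.05. Dots number 0, 4, 2, 8 and 4 from the top row to the bottom row.

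In limma's F test over identifier series 0 of 36 members passed, against 1.71% of 18749 tested genes, and 2 members had an unadjusted p under 0.05. These were Pcdhgc3 (adjusted p = 0.13) and Pcdhb10 (0.304). Pcdhgc3 had 11.9 ± 2.40 CPM in series B, 7.78 ± 4.20 in C, 11.3 ± 5.22 in D, 12.4 ± 5.12 in E and 13.6 ± 3.54 in F (SD), and the ranges of all series overlapped. Pcdhb10 had 7.36 ± 1.87, 7.20 ± 2.60, 6.57 ± 2.14, 4.81 ± 0.986 and 5.42 ± 0.624 CPM in the same order. The summed gamma level was 117.6 ± 15.4, 110.6 ± 14.3, 112.8 ± 14.7, 116.0 ± 14.6 and 116.3 ± 7.08 CPM.

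Genes that act with the clusters were followed in the same fits. Of 22 genes of promoter choice and chromatin looping, such as CTCF, cohesin and DNA methyltransferases, 2 rose and 9 fell on the astrocyte score, while 14.9% of tested genes rose and 16.1% fell. Rad21, a cohesin subunit, rose by 0.14 ± 0.03 (limma adjusted p = 8.01e-05), while Smc1a, another cohesin subunit, had a slope of -0.19 ± 0.05 (0.000959). On the serotonergic score 1 rose (Rad21, 0.11 ± 0.03, 0.0111) and 4 fell, against 5.13% and 7.6% of tested genes. On the dopaminergic score 0 rose and 2 fell, against 1.89% and 2.47%. These 2 were Nipbl, the cohesin loader, with -0.09 ± 0.03 (0.0429) and Ctcf with -0.10 ± 0.03 (0.0448). On the oligodendrocyte score 1 rose and 1 fell, against 15.5% and 8.8%. On the RMTg inhibitory score 0 of 22 passed, against 0.0427%. Ctcf ran from 41.3 to 79.5 CPM.

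Of 18 genes of cytoplasmic partners and cleavage, 6 rose and 0 fell on the astrocyte score, while 14.9% of tested genes rose and 16.1% fell. Pdcd10, an adaptor bound by the shared cytoplasmic domain, rose by 0.15 ± 0.03 (limma adjusted p = 0.000192). Abi2 and Nckap1, subunits of the WAVE actin complex, rose by 0.12 ± 0.03 (0.000487) and 0.14 ± 0.03 (0.000513). On the oligodendrocyte score Adam10, a protease that cuts protocadherins at the membrane, rose by 0.20 ± 0.05 (limma adjusted p = 0.00177). On the serotonergic score 3 of 18 rose, against 5.13% of tested genes, and on the dopaminergic score 0 of 17 passed, against 4.37%. Ret, a dopaminergic marker of the score itself, was left out there. Of 17 non-clustered protocadherins and related cadherins past the filter, 3 rose and 2 fell on the astrocyte score, against the same 14.9% and 16.1%. On the serotonergic score 1 rose and 1 fell, against 5.13% and 7.6%. On the RMTg inhibitory, dopaminergic and oligodendrocyte scores 0 passed, against 0.0427%, 4.37% and 24.3% of tested genes. Pcdh7 was the 1 gene of these lists that differed between series (limma adjusted p = 0.0424), against 1.71% of tested genes. Of 12 neighbours of the locus past the filter, 4 rose and 1 fell on the oligodendrocyte score, against 15.5% and 8.8% of tested genes. Hars2 had the smallest p, with 0.12 ± 0.03 (limma adjusted p = 0.00536). On the RMTg inhibitory and dopaminergic scores 0 of the 12 passed, against 0.0427% and 4.37%. On the serotonergic score 1 fell, against 7.6%, and on the astrocyte score 1 rose, against 14.9%.

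The 32 libraries of the second kind were not pooled with the others, and their levels are given as a description, after leaving LOC120093067, Zfp532 and Nif3l1 out of the totals of both kinds. Isoforms moved in both directions between the kinds. Pcdhb22 was at 9.41 ± 4.15 CPM in the second kind and 2.33 ± 0.854 in the first, a difference of 1.55 in mean log2(CPM + 1). Pcdhb17 was at 17.2 ± 8.34 against 4.69 ± 1.45 CPM, Pcdhgc3 at 30.7 ± 19.4 against 11.03 ± 4.82 CPM and Pcdhb6 at 9.59 ± 6.38 against 3.28 ± 1.30 CPM. In the other direction, Pcdhga2 was at 6.24 ± 4.86 against 16.1 ± 4.88 CPM, Pcdhga7 at 12.6 ± 7.54 against 23.4 ± 6.52 CPM and Pcdhb9 at 3.75 ± 2.04 against 7.20 ± 1.81 CPM. Over all 18749 tested genes the median difference was -0.39 (quartiles -1.09 and 0.34).

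Among 19 beta rows past the filter, Pcdhb10 apart, the difference between the kinds went with the length of the gene. Of these rows 10 were higher in the second kind, against 35.7% of all tested genes, and 9 were lower. The 10 higher rows had a median span of 3474.5 bases (2787 to 6105), and the 9 lower rows 2807 bases (2340 to 3855). Across these 19 genes, which are not independent replicates, Spearman's rho between span and difference was 0.60 and Pearson's r 0.73, and the ranges of span overlapped. The cause was not tested. Depth and the mix of identifier series both differed between the kinds as given above, and their parts in these differences were not tested. With their lower depth, levels in the second kind carry more counting error.

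**Figure D5:**
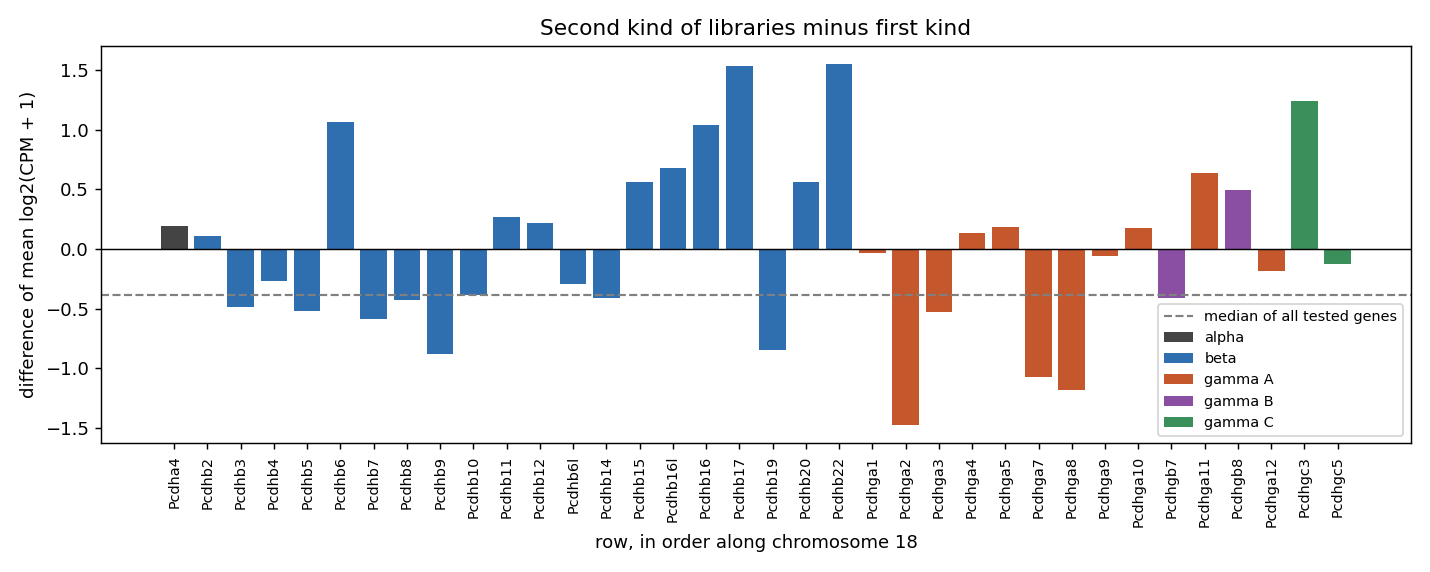
Mean log2(CPM + 1) in the 32 libraries of the second kind minus that in the 49 of the first, with 3 dominant features left out of the totals, for the 36 rows in order along chromosome 18. Bars run from -1.47 (Pcdhga2) to 1.55 (Pcdhb22), and the dashed line marks the median of all tested genes (-0.39).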

How the data were processed

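The deposited table gives log2 values per gene for 92 libraries; per the submitters' processing notes kallisto 0.48 was used by the authors, and the genome build and annotation are not given in the sources used here. From the values, each is log2 of an estimated count plus 1, with depth and transcript length not removed; how transcripts were joined into genes is not stated. Values were back-transformed, scaled to CPM by the library total and used as log2(CPM + 1) for genes that reached 1 or more in 20% or more of the libraries. Libraries were sorted into kinds by the share of counts in Nif3l1 (20%) and in LOC120093067 plus Zfp532 (10%). Slopes on marker scores and the F test over series were fitted with limma 3.58.1 in R 4.3.3 (mean trend) over all tested genes with Benjamini-Hochberg adjustment, leaving out a score's own markers. Pairs were tested with 100000 two-sided permutations. A series starts where neighbouring identifiers differ by over 50000. The members, lists and tests were chosen with earlier results of these data known. Genes were named by a rule written with them: C-type isoforms, the highest and lowest row of each group, the 4 largest and 4 smallest residual SDs, up to 6 calls per fit, and the 6 highest and 4 lowest pairs; others are named where stated or as group examples. Group sums, promoter motifs and the span of beta genes were added after seeing the data. The procedures were tested on simulated data. The number of libraries and the total counts limit precision; columns of values that match no sample number 0, and 1 labelled sample has no column. Some results on marker and partner genes are not reported here.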

Additional observations from a re-analysis of the deposited data

How the results depend on the processing

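The mean levels of all 38 rows stayed within 1 SD of the reported value with median-of-ratios size factors and with Nif3l1, LOC120093067 and Zfp532 taken out of the library totals. Of the 18 slopes past the threshold, 4 stayed there in every alternative on the first-kind libraries: Pcdhb9, Pcdhb11 and Pcdhb17 on the astrocyte score and Pcdha4 on the oligodendrocyte score. The larger moves of the counts of members past the threshold are given here, with the share of all tested genes called in brackets. The reported counts were 0, 4, 2, 8 and 4 for the RMTg inhibitory, serotonergic, dopaminergic, astrocyte and oligodendrocyte scores (0.0427%, 12.7%, 4.37%, 30.9% and 24.3%). With median-of-ratios size factors the RMTg inhibitory count was 1 (0.266%) and the oligodendrocyte count 2 (18.3%). With no filter the serotonergic, dopaminergic, astrocyte and oligodendrocyte counts were 1, 0, 5 and 2 (4.34%, 1.43%, 15.9% and 11%). More genes were tested there. With identifier series as a covariate the serotonergic and dopaminergic counts were 1 and 0 (6.47% and 2.94%). With Xist and Ddx3y they were 2 and 1 (8.69% and 1.06%). With the 2 libraries of most distant score left out they were 2 and 0 (11.9% and 5.25%). The dopaminergic count was also 1 with a pseudocount of 0.5 CPM (4.28%) and 1 with the composition index (4.69%). In the second kind of libraries the counts of 37 rows were 17 on the RMTg inhibitory score (45.9%, against 50% of all tested genes), 9 on the serotonergic (24.3% against 44.7%), 11 on the dopaminergic (29.7% against 39.2%), 11 on the astrocyte (29.7% against 36%) and 9 on the oligodendrocyte score (24.3% against 32.1%).

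Pairs at r of at least 0.5 numbered 4 after 10 principal components (0.635%, against 0.161% of all pairs) and 40 in the second kind (6.01% against 16.6%). Rows with separated levels numbered 4 there, against 1.35% of tested genes. The cause was not tested. Directions turned in the second kind for the slopes of Pcdhga8 on the serotonergic score (0.42), Pcdhb2 on the dopaminergic score (-0.094) and Pcdha4 on the oligodendrocyte score (0.30). They turned there too for the pairs Pcdhb6 with Pcdhb9 (-0.038), Pcdha4 with Pcdhga7 (0.15) and Pcdhb19 with Pcdhgb7 (0.33), and after 10 principal components for Pcdhga4 with Pcdhgb7 (0.079). The median residual SD was 0.06 to 0.09 under the alternatives on the first kind and -0.01 in the second. Rows of few counts, such as Pcdhb1 and Pcdhb21, cannot be followed at this depth. No paired analysis was possible because all samples form 1 group.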
